A study of Mus musculus with 19 samples.

Results

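Collagens, laminins and integrins build the extracellular matrix and tie cells to it. Their transcripts were followed here in the locus coeruleus of mice after sleep and after sleep deprivation. The mice were controls or were labelled CnB1KO, for a knockout of calcineurin B1. The members are all genes of the deposited count table whose symbols follow the patterns of collagen alpha chains (Col, number, a, number), laminin chains (Lama, Lamb or Lamc and a number) and integrin subunits (Itga or Itgb and a number). These are 68 of 14443 genes, namely 39 collagen genes, 11 laminin genes and 18 genes with an integrin symbol. Itgb1bp1 and Itgb3bp matched the integrin pattern by symbol, but they encode proteins that bind integrin tails and are not subunits, which leaves 16 integrin subunits. Subunits named by a letter, such as Itgav, fall outside the pattern. All 68 members passed the filter on low counts and were tested.

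The locus coeruleus is a small noradrenergic nucleus of the brainstem that drives wakefulness. The tissue was dissected from frozen 200 µm brain sections, and its poly(A) RNA was sequenced in 19 libraries, described as biological replicates and called here by the numbers of the deposited columns. Mice labelled ABC-Ctrl gave the control groups WT_S6 (n = 4) and WT_SD6 (n = 5), and mice labelled ABC-CnB1KO gave CnB1KO_S6 (n = 5) and CnB1KO_SD6 (n = 5). S6 marks mice that slept normally and SD6 mice kept awake for 6 h. Both genotypes had received AAV-hSyn-Cre, a virus that expresses Cre from a neuronal promoter, 4 weeks earlier, so the controls carry the virus too. The glial, vascular and meningeal cells of the brain, known to make most matrix, are not the cells in which this promoter is known to be active. Which cells expressed Cre in these samples was not tested. The sources used here do not give age, sex or genetic background. Whether each library is 1 mouse is not given either, and p-values measure the spread between libraries.

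Collagens are triple helices of 3 alpha chains. Fibril-forming collagens give tensile strength in connective tissue and meninges, type IV collagen forms the network of basement membranes, and fibril-associated and transmembrane collagens link fibrils or cell surfaces to other matrix. Laminins are heterotrimers of an alpha, a beta and a gamma chain that organise basement membranes, in brain mainly around vessels and under the meninges. Integrins are pairs of an alpha and a beta subunit that bind these proteins and connect them to the cytoskeleton. In the brain, fibroblasts, endothelial cells, pericytes and astrocyte endfeet are the best-known sources of these proteins, while some collagens and integrins are made by neurons and oligodendrocytes.

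The total count per library was 3887298 to 7903253, and members took 0.21% to 0.26% of it. Ppp3r1, which encodes calcineurin B1, stood at 155 to 164 CPM (a gene's reads scaled to 1 common library size) in slept and 136 to 165 CPM in deprived WT libraries. In CnB1KO libraries the ranges were 120 to 152 CPM after sleep and 123 to 141 CPM after deprivation. Averaged over sleep states it was 1.2-fold lower in CnB1KO (log2 -0.26, SE 0.04, edgeR adjusted p = 0.00758), and its libraries did not overlap between genotypes after sleep. Most reads of the gene thus remained in the CnB1KO tissue. Reads were counted per gene, so intact and shortened transcripts cannot be told apart. Markers of endothelial cells, pericytes, oligodendrocytes, astrocytes, microglia, meningeal fibroblasts and noradrenergic neurons were measured in all 4 groups, and none was at 0 in a group. Cerebellar granule cell markers were measured as well, at a score of 4.35 to 7.86, where a score is the mean log2 CPM of a cell type's markers. In bulk tissue, fewer cells of a type and less RNA per cell cannot be told apart.

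Levels were compared between members by FPKM, the fragments scaled for gene length and library size that the authors deposited in 1 table per group. Itgb1, the beta subunit shared by most matrix-binding integrins, had the highest mean level at 28.4 ± 2.28 FPKM (SD, n = 19). Itgb8, which with the alpha V subunit activates latent TGF-beta, followed at 22.5 ± 2.65 FPKM. The laminin receptor subunit Itga3 (20.8 ± 1.2 FPKM), Itgb5 (19.7 ± 2.23 FPKM) and the laminin receptor subunit Itga6 (19.6 ± 3.19 FPKM) came next. From Itgb8 to Itga6 neighbours in this order differed by less than the larger of their SDs. Among the 10 members with the highest FPKM, 7 were also among the 10 highest by CPM per kilobase of exon, a level computed from the counts.

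By mean FPKM the first collagen was Col25a1, a transmembrane collagen of neurons, at 16 ± 4.18 FPKM with libraries from 6.57 to 24.6. Col4a2 and Col4a1, the chains of the ubiquitous type IV collagen, stood at 15 ± 2.11 and 11.8 ± 1.13 FPKM, and the gap from Col25a1 to Col4a2 is within the SD. By CPM per kilobase of exon the order turned, with Col4a2 first among collagens at 16.2 and Col25a1 below 6 others at 6.98. The other type IV chains were far lower, from 2.51 FPKM for Col4a5 to 0.349 FPKM for Col4a3. Of the fibril-associated collagens, Col16a1 (12.9 FPKM), Col9a3 (9.55 FPKM) and Col9a2 (8.11 FPKM) led, and Col22a1 was the lowest member at 0.328 FPKM. Fibril-forming chains ran from Col11a2 (10.9 FPKM), Col1a2 (8.3 FPKM) and Col11a1 (7.44 FPKM) down to Col5a1 (1.49 FPKM). Col2a1, the collagen of cartilage, was low at 1.7 ± 0.558 FPKM. Col13a1 and Col22a1 were each listed at 0 FPKM in 1 library in which the count table holds reads of them, so these 0 values are not absence.

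Among laminin chains the order was Lamb2 (14.2 ± 1.59 FPKM), Lamc1 (12 ± 1.26 FPKM), Lamb1 (6.01 ± 1.71 FPKM) and Lama2 (5.79 ± 0.862 FPKM). Lamc1 is the gamma chain of most laminins and Lama2 the alpha chain of muscle and of astrocyte basement membranes. Lamc3 (4.06 FPKM), Lama5 (3.36 FPKM), Lama4 (2.19 FPKM) and Lama1 (1.71 FPKM) were lower. Lamb3 and Lama3, chains of epithelial laminins, stood at 1.47 and 0.947 FPKM. For the integrins, Itga7 (13.7 FPKM) and Itgb4 (8.63 FPKM), 2 further laminin receptor subunits, were above Itga4 (3.85 FPKM), Itga1 (3.52 FPKM) and Itga10 (2.48 FPKM). Itgb2, the leukocyte integrin subunit, stood at 2.36 FPKM and Itga8 at 0.855 FPKM.

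**Figure D1:**
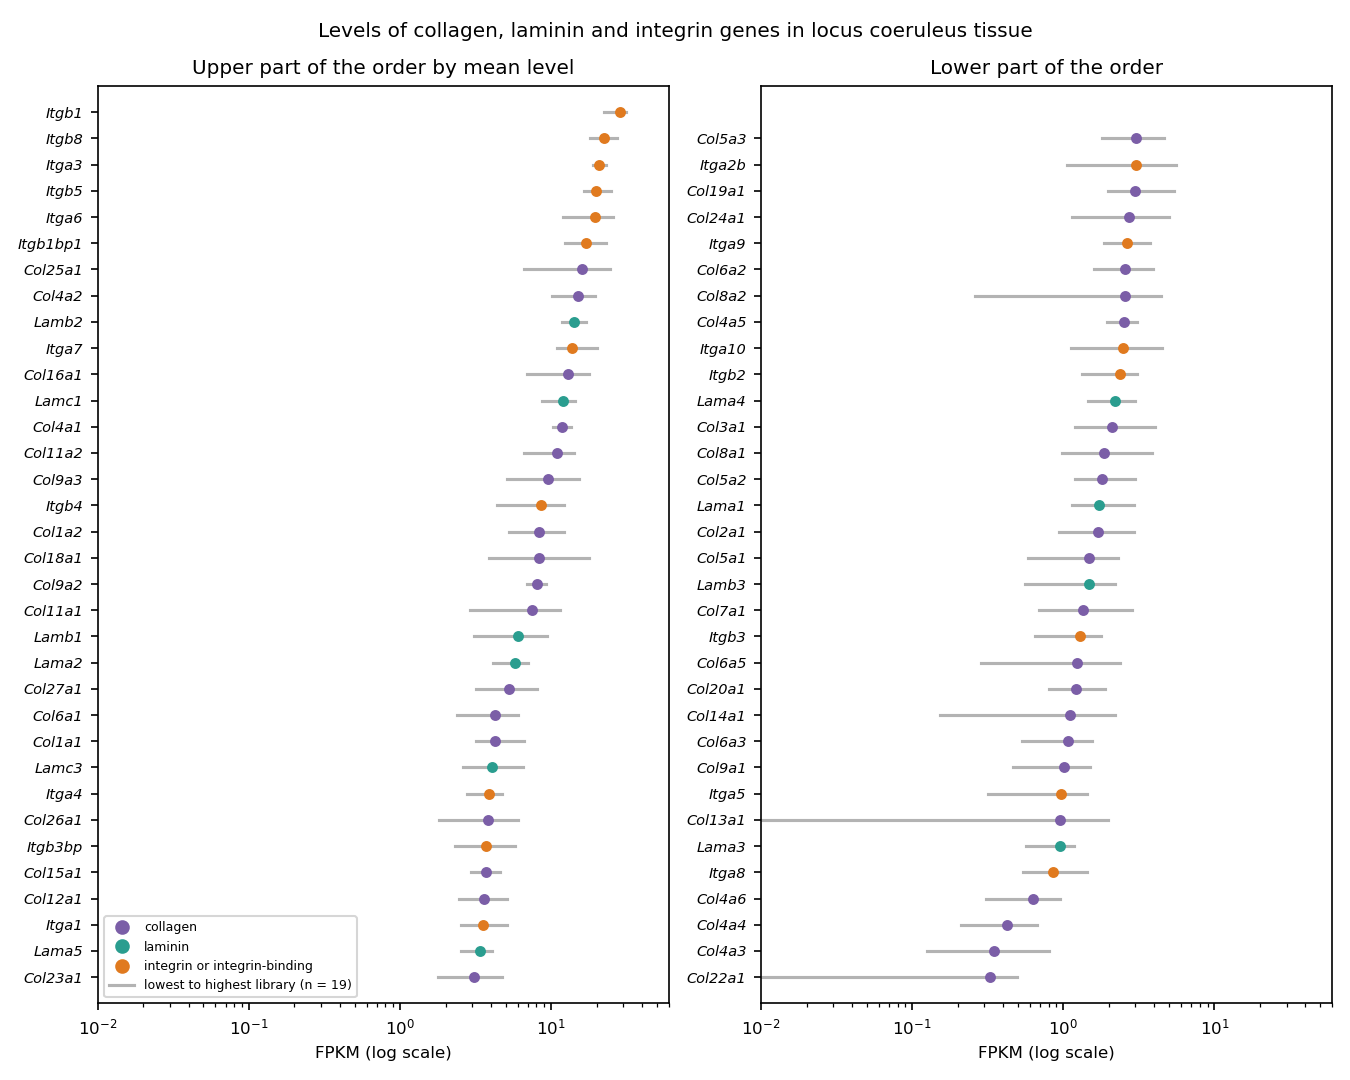
Mean FPKM (log axis) of the members over 19 libraries (1 member is not reported and not drawn), ordered by level in 2 panels, with the line from the lowest to the highest library and the colour giving the protein family. Integrin subunits take the first 5 places from Itgb1 at 28.4 FPKM, and Col22a1 is last at 0.328 FPKM. The lines of Col13a1 and Col22a1 run to the left edge because 1 library is listed at 0.

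Members also differed in how evenly they were found. The SD over the 19 libraries was 5.25% of the mean CPM for Itga3, 7.95% for Lamc1, 8.08% for Itgb1 and 9.7% for Col4a1. It was 44.7% for Col6a5, 44.5% for Col8a2 and 44% for Col18a1, the basement membrane collagen from which endostatin is cut. Col8a2, a chain of the network collagen of endothelium and cornea, ranged from 1.29 to 19.9 CPM within WT_S6. Col18a1 ranged from 24.6 to 104 CPM within WT_SD6, and groups overlapped for both genes.

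Sleep deprivation was compared first within each genotype. In WT mice 2 of 68 members passed an adjusted p of 0.05, against 1.14% of all genes (165 of 14443). Itga10, a collagen-binding integrin subunit known from chondrocytes, rose, as did 0.775% of all genes. Col2a1, the fibril collagen of cartilage, fell, as did 0.367% of all genes. Both were also the only 2 members whose WT_S6 and WT_SD6 libraries did not overlap, against 5.21% of all genes. The other members did not pass.

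Itga10 stood at 6.62, 6.79, 7.1 and 9.16 CPM in WT_S6 and at 10.2, 10.8, 12, 14 and 16.6 CPM in WT_SD6. Every deprived library was above every slept one. The difference was 1.7-fold (log2 0.77, SE 0.17, edgeR adjusted p = 0.0284). In CnB1KO mice it stood at 7.49, 7.61, 8.19, 9.39 and 10.6 CPM after sleep and at 10, 11.9, 13.6, 15.1 and 15.2 CPM after deprivation. Here 1 deprived library lay below the highest slept one, and the change of 1.52-fold (log2 0.60, SE 0.16) had an edgeR adjusted p of 0.0896. The raw counts behind these values were 30 to 105 reads per library, and 1739 bases of Itga10 exons are shared with the same-strand model Gm42957, so reads there may have been left out of the count.

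Col2a1 stood at 11.3, 12.2, 13.3 and 14.2 CPM in WT_S6 and at 5.49, 5.76, 7.04, 8.34 and 9.09 CPM in WT_SD6. Again the groups did not overlap, with all deprived libraries lower. The gene fell 1.79-fold (log2 -0.84, SE 0.18, edgeR adjusted p = 0.0209). In CnB1KO mice it stood at 8.49, 9.55, 10.7, 11.1 and 11.1 CPM after sleep and at 5.93, 6.02, 7.64, 8.83 and 11.1 CPM after deprivation. The libraries overlapped, and the difference of log2 -0.38 (SE 0.17) had an edgeR adjusted p of 0.466. The count behind each value was 35 to 92 reads.

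In CnB1KO mice 0 of 68 members passed after deprivation by edgeR, against 0.692% of all genes (100 of 14443). DESeq2, limma voom and limma on FPKM also called 0. At an unadjusted p under 0.05 there were 7 members, or 10.3%, against 9.69% of all genes. The smallest p belonged to Itga10, Itga6 (log2 -0.25, SE 0.08, edgeR adjusted p = 0.226) and Col6a3 (log2 -0.47, SE 0.17, edgeR adjusted p = 0.299). Col19a1, a fibril-associated collagen of interneurons and basement membranes, was the 1 member whose libraries did not overlap, against 2.66% of all genes. It stood at 14.7, 17, 17.3, 17.5 and 19.7 CPM in CnB1KO_S6 and at 11.9, 12.6, 13.7, 13.8 and 14.5 CPM in CnB1KO_SD6.

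The WT calls rest on few libraries. With only the 9 WT libraries in the fit, or on log2(FPKM + 0.1) or log2(FPKM + 1), 0 members passed in WT, and without 1 library at a time 0 to 3 did. WT_S6 libraries 2 and 4, each left out, ended both calls; WT_S6 library 1 and WT_SD6 libraries 7 and 9 ended that of Itga10, and WT_SD6 library 6 that of Col2a1. Without both CnB1KO_S6 library 13, the shallowest, and WT_SD6 library 8, the lowest in noradrenergic markers, the edgeR adjusted p was 0.048 for Itga10 and 0.0501 for Col2a1.

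The difference between the genotypes' responses was tested as an interaction, and 0 of 68 members passed by edgeR, DESeq2, limma voom or limma on FPKM. Among all 14443 genes edgeR called 0, a share of 0%, and DESeq2 called 1. At an unadjusted p under 0.05 there was 1 member, or 1.47%, against 1.99% of all genes. It was Col6a1, a chain of the beaded filament collagen VI, at 20.3 ± 5.21 CPM in WT_S6 (SD, n = 4), 16.3 ± 4.05 in WT_SD6, 19.1 ± 2.25 in CnB1KO_S6 and 23.6 ± 2.59 in CnB1KO_SD6 (n = 5 each). Its interaction was log2 0.62 (SE 0.23, edgeR adjusted p = 0.9999). For Col2a1 the interaction was log2 0.46 (95% interval -0.07 to 0.98) and for Itga10 log2 -0.17 (-0.65 to 0.32). These intervals include 0 and differences close to or beyond the averaged change of each gene, so neither a like nor a different response of the 2 genotypes was shown.

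Averaged over both genotypes, deprivation moved 6 of 68 members past the threshold, or 8.82%, against 4.69% of all genes (678 of 14443). Itga10 and Col5a3 rose (2.94% of members, beside 2.57% of all genes). Col2a1, Col11a2, Col6a3 and Itga6 fell (5.88%, beside 2.13%). Of these, 4 are collagen chains and 2 integrin subunits; no laminin chain passed. At an unadjusted p under 0.05 there were 16 members, or 23.5%, against 17.2% of all genes.

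Itga10 was 1.61-fold higher after deprivation (log2 0.68, SE 0.11, edgeR adjusted p = 0.00133), and Col2a1 1.53-fold lower (log2 -0.61, SE 0.12, edgeR adjusted p = 0.00588). Both differed in the same direction in each genotype, as the plot of both deprivation responses shows. Col5a3, the chain that joins type V collagen in a few tissues, stood at 13, 15.3, 17.8 and 21.1 CPM in WT_S6 and at 17.7, 20.8, 21.2, 26.7 and 31.8 CPM in WT_SD6. In CnB1KO_S6 it stood at 16.8, 17.5, 19.2, 20.6 and 22.8 CPM and in CnB1KO_SD6 at 19.2, 23.1, 24.5, 26.8 and 28.9 CPM. The groups overlapped within each genotype, and the averaged rise was 1.33-fold (log2 0.41, SE 0.11, edgeR adjusted p = 0.0468).

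Col11a2, a chain of the type XI collagen that nucleates cartilage fibrils, stood at 64.8, 70.8, 76.3 and 80.2 CPM in WT_S6 and at 38.9, 44.8, 47.6, 50.5 and 65.5 CPM in WT_SD6. Only WT_SD6 library 10, at 65.5 CPM, reached into the slept range. In CnB1KO it stood at 69.9, 75.5, 82.3, 82.7 and 86 CPM after sleep and at 44.3, 60.6, 71.4, 73.5 and 77.3 CPM after deprivation, and the groups overlapped. It fell 1.34-fold on average (log2 -0.42, SE 0.10, edgeR adjusted p = 0.0181). The change was log2 -0.56 in WT and -0.28 in CnB1KO, neither of which passed alone by edgeR. In WT it passed by DESeq2 (DESeq2 adjusted p = 0.0147), and with the meningeal fibroblast score (edgeR adjusted p = 0.0433) or the cerebellar granule cell score (edgeR adjusted p = 0.00138) as a covariate.

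Col6a3, the long chain of collagen VI, stood at 9.93, 11.9, 14.7 and 14.8 CPM in WT_S6 and at 5.64, 8.34, 9.01, 9.28 and 11.4 CPM in WT_SD6. In CnB1KO_S6 it stood at 9.96, 12.5, 13, 13.7 and 14.2 CPM and in CnB1KO_SD6 at 7.24, 7.85, 9.56, 10 and 11 CPM. The lowest slept library of each genotype lay inside the deprived range, and the averaged fall was 1.42-fold (log2 -0.51, SE 0.12, edgeR adjusted p = 0.0205). Its partner chains Col6a1 and Col6a2 did not pass.

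Itga6, the alpha subunit of laminin receptors with Itgb1 or Itgb4, stood at 68.5, 77.9, 84 and 87 CPM in WT_S6 and at 58.7, 68.8, 69.8, 72.4 and 73.2 CPM in WT_SD6. In CnB1KO it stood at 83.1, 84.8, 94.3, 96.1 and 104 CPM after sleep and at 69.7, 71.9, 79.9, 82.2 and 85.1 CPM after deprivation. Ranges overlapped in both genotypes, and the averaged fall was 1.17-fold (log2 -0.23, SE 0.06, edgeR adjusted p = 0.0288). Itgb4, which pairs only with Itga6, stood at 61.7 ± 7.91 CPM in WT_S6 (SD, n = 4) and 43.1 ± 10.5 in WT_SD6 (n = 5), and at 66.3 ± 9.81 and 56.5 ± 10.6 CPM in CnB1KO_S6 and CnB1KO_SD6 (n = 5 each), and did not pass. Itgb1, its other partner, stood at 109 to 135, 98.3 to 126, 124 to 138 and 122 to 135 CPM in the same 4 groups and did not pass.

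**Figure D2:**
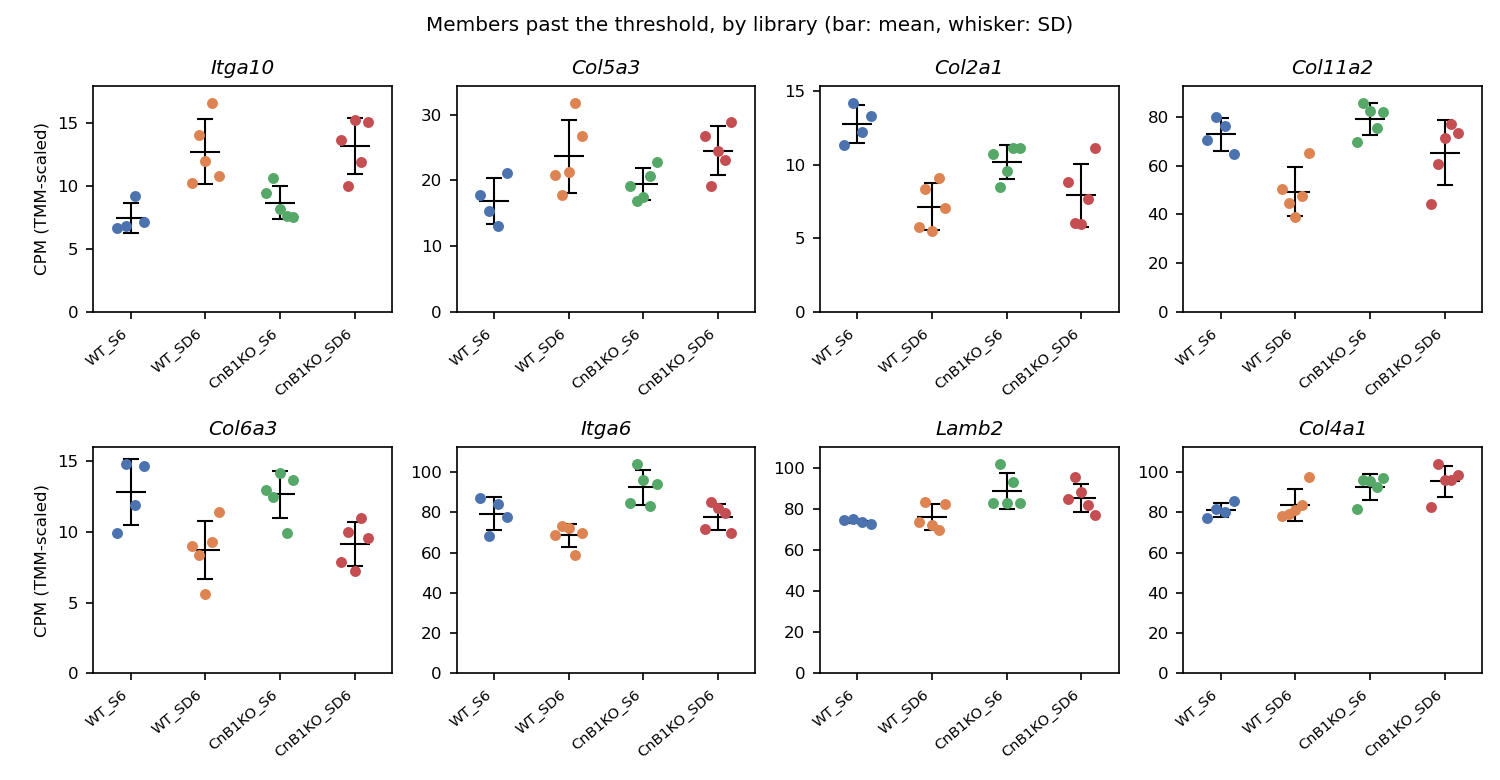
CPM (linear axes from 0) of the 8 members that passed in any comparison, with 1 point per library in the 4 groups, bars at the mean and whiskers of 1 SD. Itga10 and Col2a1 separate the slept from the deprived WT libraries, and the remaining genes overlap between sleep states within a genotype.

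Of 12 oligodendrocyte markers 3 fell with deprivation averaged over genotypes, namely Opalin, Aspa and Mog, 2 fell in WT (Opalin, log2 -1.28, and Aspa, log2 -0.68) and 1 in CnB1KO (Opalin). In WT all 12 were below 0 and in CnB1KO 8. The score of the 12 markers was 7.24 ± 0.09 in WT_S6 (SD, n = 4) and 6.95 ± 0.11 in WT_SD6 (n = 5), with summed CPM of 2110 to 2390 and 1950 to 2200. In CnB1KO it was 7.33 ± 0.19 and 7.22 ± 0.14 (n = 5 each), with sums of 2070 to 3200 and 2120 to 2600, and no marker was at 0. Genes of other marker lists also lay mostly on 1 side of 0. In WT, 11 of 12 microglia markers were below 0 (score 4.73 ± 0.07 and 4.53 ± 0.14, SD), as were 7 of 8 oligodendrocyte precursor markers (6.23 ± 0.11 and 6.03 ± 0.18). In CnB1KO, 10 of 11 meningeal fibroblast markers were above 0 (2.69 ± 0.39 and 3.07 ± 0.59), with a median log2 change of 0.42 and none past the threshold. Above 0 in WT were 10 of 12 endothelial, 8 of 10 pericyte and smooth muscle and 8 of 10 cerebellar granule cell markers. On average the astrocyte marker Gjb6 and the endothelial markers Ly6c1 and Slc2a1 rose. The pericyte marker Notch3, the microglia markers Cx3cr1 and Siglech and the precursor marker Enpp6 fell on average. Over all genes 2.57% rose and 2.13% fell. The part of the microglia, precursor, pericyte and astrocyte markers in the calls was not tested. With the oligodendrocyte score as a covariate, Col2a1 (log2 -0.77, edgeR adjusted p = 0.00823) and Itga10 (log2 0.62, edgeR adjusted p = 0.0321) still passed on average, while in WT alone Itga10 did not (log2 0.68 beside 0.77 without the covariate, edgeR adjusted p = 0.221). Col11a2 (log2 -0.26, edgeR adjusted p = 0.249), Itga6 (log2 -0.14, edgeR adjusted p = 0.307), Col6a3 (log2 -0.44, edgeR adjusted p = 0.159) and Col5a3 (log2 0.26, edgeR adjusted p = 0.372) no longer did. Each of these genes still passed on average with the meningeal fibroblast, endothelial or cerebellar granule cell score (edgeR adjusted p at most 0.0377). The oligodendrocyte score holds Opalin, Aspa and Mog, which fell themselves. In WT it was at least 7.1 after sleep and at most 7.07 after deprivation, so there this covariate cannot be told apart from sleep state. On the 2 FPKM scales, Itga10 and Col11a2 passed on both, Col2a1 with a pseudocount of 1 only, and the other 3 on neither.

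Leaving out single libraries changed the calls of 3 of the 6. Itga10, Col2a1 and Col11a2 passed without each of the 19 libraries in turn. Col6a3 was lost without WT_S6 library 2 or 4. Itga6 was lost without WT_S6 library 1 or 3, CnB1KO_S6 library 12, 13 or 15, or CnB1KO_SD6 library 16. Col5a3 passed in 6 of the 19, that is without WT_S6 library 4, WT_SD6 library 6, 7 or 8, CnB1KO_S6 library 15 or CnB1KO_SD6 library 17.

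**Figure D3:**
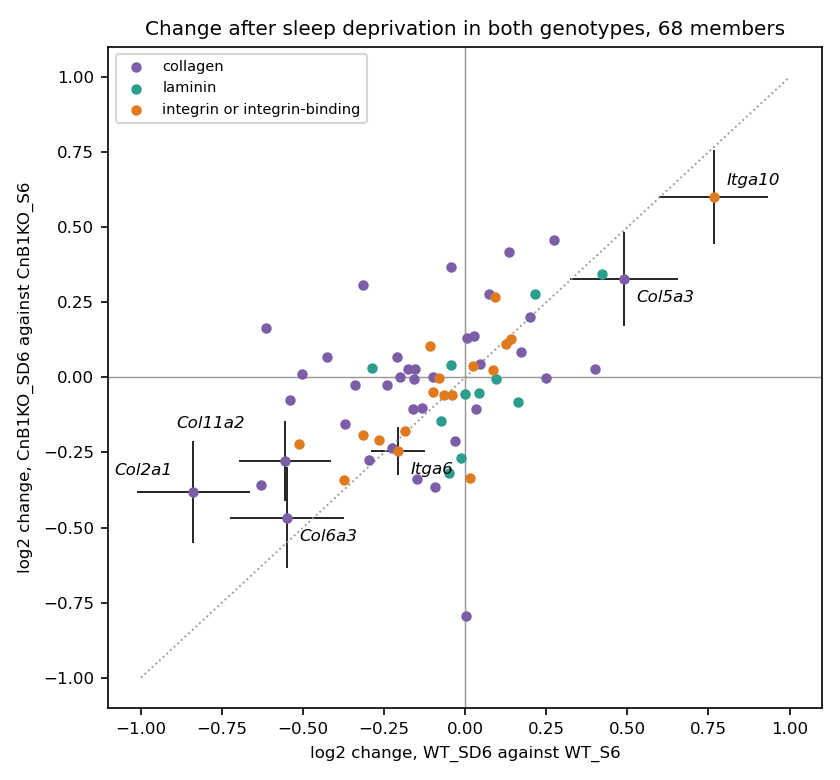
The log2 change after deprivation of each of the 68 members in WT (x axis) and in CnB1KO (y axis), with 1 point per gene, colours for the 3 protein families, bars of 1 SE for the 6 genes that passed on average, and the diagonal of equal change. Itga10 (0.77 and 0.60) and Col5a3 (0.49 and 0.33) lie in the upper right, and Col2a1 (-0.84 and -0.38), Col11a2, Col6a3 and Itga6 in the lower left.

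The members' median averaged log2 change after deprivation was -0.07, with 46 of 68 members below 0, beside -0.003 and 7458 of 14443 for all genes. Collagens had a median of -0.10, with 27 of 39 below 0, laminins -0.005 with 7 of 11, and integrin subunits -0.07 with 11 of 16. By role, 8 of 9 fibril-associated collagens and all 4 measured collagen VI chains (median -0.25) were below 0, and 3 of 4 other collagens (median 0.24) were above it. The highest collagen VI chain stood at log2 -0.005, and within each genotype 1 of the 4 was above 0. In WT alone the median of the members was -0.08 beside 0.001 for all genes. In CnB1KO it was -0.005 beside -0.0055, with 38 of 68 members and 7621 of 14443 genes below 0, so the members there lay where all genes did.

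The promoters of the 4 members that passed on average with deprivation and have an entry in the table of RefSeq promoters (GRCm38.p6) are shown, so that the genes that rose and those that fell can be read beside each other. Each line is the longest stretch of the 250 bases before the start that lies clear of annotated exons. This is 217 bases for Itga10 and all 250 for the other 3. Entries were found for 48 of 68 members, and Col2a1 and Itga6 were not among them. Each line ends 1 base before the start that RefSeq gives, which for Col11a2 is 300 bases before the start in GENCODE and for the other 3 1 base before it. The lines read 5′ to 3′ on the gene's strand, with in capitals every match on either strand to the GC box GGGCGG, the CCAAT box CCAAT, the TATA box TATAAA and the glucocorticoid receptor half-site AGAACA.
Itga10, chr3:96645367-96645583, + strand: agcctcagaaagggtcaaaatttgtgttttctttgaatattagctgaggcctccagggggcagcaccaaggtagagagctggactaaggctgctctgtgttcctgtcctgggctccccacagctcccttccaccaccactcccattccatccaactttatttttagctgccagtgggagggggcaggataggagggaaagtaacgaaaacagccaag
Col5a3, chr9:20815068-20815317, - strand: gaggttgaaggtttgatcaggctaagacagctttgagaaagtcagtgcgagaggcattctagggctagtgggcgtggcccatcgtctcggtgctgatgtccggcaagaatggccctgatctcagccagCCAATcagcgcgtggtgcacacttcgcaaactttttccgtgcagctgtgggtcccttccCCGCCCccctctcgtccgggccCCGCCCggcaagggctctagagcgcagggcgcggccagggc
Col11a2, chr17:34038888-34039137, + strand: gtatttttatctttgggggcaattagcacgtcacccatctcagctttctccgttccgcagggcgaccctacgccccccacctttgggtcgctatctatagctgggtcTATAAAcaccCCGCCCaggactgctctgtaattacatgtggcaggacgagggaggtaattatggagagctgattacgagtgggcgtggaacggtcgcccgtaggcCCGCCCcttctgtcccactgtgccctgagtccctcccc
Col6a3, chr1:90843972-90844221, - strand: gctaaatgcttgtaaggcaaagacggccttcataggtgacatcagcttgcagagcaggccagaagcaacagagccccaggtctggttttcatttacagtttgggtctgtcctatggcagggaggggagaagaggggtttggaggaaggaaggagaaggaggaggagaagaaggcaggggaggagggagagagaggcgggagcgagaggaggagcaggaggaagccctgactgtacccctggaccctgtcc

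Col11a2 and Col5a3 each hold 2 GC boxes. At least 1 is found in 32.9% of 27025 promoters in the 250 bases before the start. Col11a2 also has 1 TATA box (13% of promoters) and Col5a3 1 CCAAT box (34.5%). Neither Itga10 nor Col6a3 holds any of these. The glucocorticoid receptor half-site, present in 16.2% of promoters, is in none of the 4 windows. The NFAT core GGAAA, named for the factors that calcineurin dephosphorylates, is in 55.6% of promoters and occurs once each in Itga10 and Col5a3 and not in Col11a2 or Col6a3. Matches are of letters only and mark no binding site.

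Genotype was compared within each sleep state. After sleep 0 of 68 members passed by edgeR, DESeq2, limma voom or limma on FPKM, against 0.0485% of all genes by edgeR (7 of 14443). At an unadjusted p under 0.05 there were 7 members, or 10.3%, against 10.1% of all genes. The smallest p belonged to Lamb2, Itga1 and Col23a1. Lamb2, higher in CnB1KO, and Col2a1, lower in it, were the 2 members whose libraries did not overlap, against 4.32% of all genes. Itga1, a collagen and laminin receptor subunit, stood at 36.8 ± 6.71 CPM in WT_S6 (SD, n = 4) and 49.7 ± 6.89 in CnB1KO_S6 (n = 5) with an edgeR adjusted p of 0.321. Col23a1, a transmembrane collagen, stood at 18.6 to 31.9 CPM in WT_S6 and 12.3 to 19.5 CPM in CnB1KO_S6, with an edgeR adjusted p of 0.33.

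After deprivation 0 members passed by the same 4 tests, against 0.132% of all genes by edgeR (19 of 14443), and at an unadjusted p under 0.05 there were 11, or 16.2%, against 15.2%. The smallest p belonged to Col6a1 (log2 0.54, edgeR adjusted p = 0.169), Col19a1 (log2 -0.54, edgeR adjusted p = 0.176) and Col11a2 (log2 0.40, edgeR adjusted p = 0.21). Without CnB1KO_SD6 library 16 Col11a2 passed (edgeR adjusted p = 0.0407). No member's libraries separated the genotypes after deprivation, against 2.05% of all genes.

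Averaged over sleep states, 2 members were higher in CnB1KO, Lamb2 and Col4a1. This is 2.94% of members beside 3.09% of all genes (447 of 14443), of which 1.88% were higher and 1.21% lower. Both are parts of the vascular basement membrane. At an unadjusted p under 0.05 there were 14 members, or 20.6%, against 23.1% of all genes. No member passed as lower.

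Lamb2, the beta chain of laminins at mature vessels and synapses, stood at 73, 73.7, 75 and 75.5 CPM in WT_S6 and at 69.7, 72.2, 73.9, 82.5 and 83.8 CPM in WT_SD6. In CnB1KO it stood at 82.9, 83, 83, 93.5 and 102 CPM after sleep and at 77.3, 82.2, 84.8, 88.4 and 95.6 CPM after deprivation. All slept CnB1KO libraries were above all slept WT libraries, while the deprived ones overlapped. On average it was 1.16-fold higher (log2 0.21, SE 0.05, edgeR adjusted p = 0.0296), with log2 0.26 after sleep and 0.16 after deprivation.

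Col4a1, whose exons overlap those of the neighbouring head-to-head gene Col4a2 by 22 bases, stood at 77.2, 80.1, 81.8 and 85.8 CPM in WT_S6 and at 78.1, 79, 81.1, 83.5 and 97.4 CPM in WT_SD6. In CnB1KO it stood at 81.9, 92.5, 95.5, 96.3 and 97 CPM after sleep and at 82.7, 96, 96.1, 98.6 and 104 CPM after deprivation. In each sleep state the lowest CnB1KO library lay within the WT range. On average it was 1.14-fold higher (log2 0.19, SE 0.05, edgeR adjusted p = 0.0446). Its partner Col4a2 stood at 107 ± 7.24, 95.8 ± 16.8, 113 ± 10.2 and 112 ± 19.6 CPM (SD) in WT_S6 (n = 4), WT_SD6, CnB1KO_S6 and CnB1KO_SD6 (n = 5 each), and did not pass.

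Of 12 endothelial markers 4, and of 10 pericyte and smooth muscle markers 2, were higher in CnB1KO on average, beside 1.88% of all genes. So were 3 of 12 oligodendrocyte, 2 of 12 microglia and 1 of 8 oligodendrocyte precursor markers, so such calls were not particular to vascular markers. The endothelial score over 12 markers was 5.39 ± 0.11 in WT_S6 (SD, n = 4), 5.49 ± 0.13 in WT_SD6, 5.68 ± 0.12 in CnB1KO_S6 and 5.72 ± 0.16 in CnB1KO_SD6 (n = 5 each), with summed CPM of 606 to 752 in WT and 732 to 933 in CnB1KO. The pericyte and smooth muscle score over 10 markers was 4.38 ± 0.11, 4.5 ± 0.18, 4.68 ± 0.14 and 4.69 ± 0.19 in the same order. All 12 endothelial and all 10 pericyte markers had an averaged log2 difference above 0, with medians of 0.25 and 0.23, and none was at 0 CPM. With the endothelial score as a covariate Lamb2 stood at log2 0.09 (edgeR adjusted p = 0.555) and Col4a1 at log2 0.15 (edgeR adjusted p = 0.433). The endothelial score holds Flt1, Cldn5, Slco1a4 and Pecam1, which were higher in CnB1KO themselves. After sleep it was at most 5.49 in WT and at least 5.59 in CnB1KO, so there this covariate cannot be told apart from genotype. After deprivation the scores overlapped, at 5.29 to 5.66 in WT and 5.54 to 5.9 in CnB1KO. With the oligodendrocyte score, all 12 of whose markers had a difference above 0, neither passed. Lamb2 then stood at log2 0.24 (edgeR adjusted p = 0.245), no smaller than its 0.21 without the covariate, and Col4a1 at log2 0.15 (edgeR adjusted p = 0.605) beside 0.19.

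Genes of other marker lists lay mostly on 1 side of 0 between genotypes as well. Of 10 cerebellar granule cell markers 9 had an averaged difference below 0, with a median of log2 -0.61, the largest of the 10 marker lists, and none past the threshold. Their score was 6.9 ± 0.69 in WT_S6 (SD, n = 4), 6.81 ± 1.21 in WT_SD6, 6.29 ± 0.85 in CnB1KO_S6 and 5.98 ± 1.23 in CnB1KO_SD6 (n = 5 each), so the groups overlapped. With this score as a covariate Lamb2 passed (log2 0.22, edgeR adjusted p = 0.0447) and Col4a1 did not (log2 0.15, edgeR adjusted p = 0.101). All 12 microglia and all 10 noradrenergic markers had differences above 0, with medians of 0.09 and 0.15. Their part in the calls was not tested.

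Single libraries decided these 2 calls too. Lamb2 was lost without WT_S6 library 3 or 4, WT_SD6 library 9, CnB1KO_S6 library 12, or CnB1KO_SD6 library 17 or 18. Col4a1 passed only without WT_SD6 library 8 or 10, CnB1KO_S6 library 11 or 14, or CnB1KO_SD6 library 16. Over the 19 omissions 0 to 7 members passed, 6 without WT_SD6 library 10 and 7 without CnB1KO_SD6 library 16, and DESeq2 on all libraries called 4 (with Itga6 and Col19a1).

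**Figure D4:**
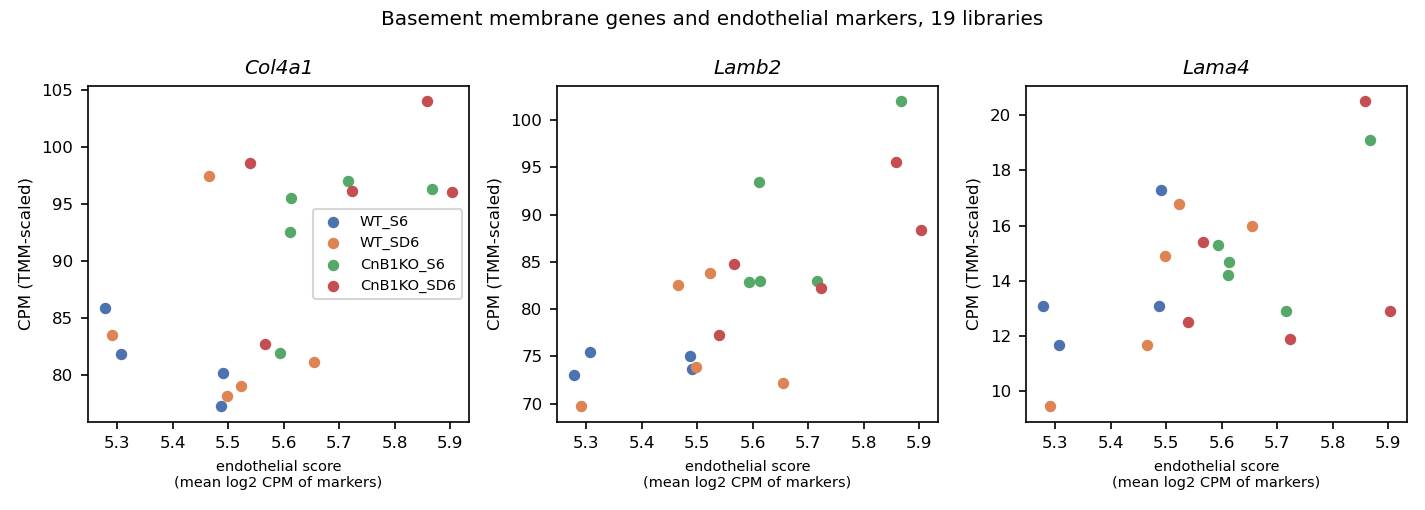
CPM of Col4a1, Lamb2 and Lama4 (y axes, not from 0) against the endothelial score (mean log2 CPM of 12 markers, x axis) in 19 libraries coloured by group. CnB1KO libraries lie to the right of most WT libraries, at 5.54 to 5.9 against 5.28 to 5.66.

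The median averaged genotype difference over the 68 members was 0.10 with 44 above 0, beside 0.007 and 7585 of 14443 for all genes. All 6 integrin beta subunits and all 5 laminin alpha chains were above 0, with medians of 0.15 and 0.12. So were all 4 measured collagen VI chains and all 3 laminin gamma chains, with medians of 0.25 and 0.10. The 3 transmembrane collagens (median -0.19) and both multiplexin collagens, Col15a1 and Col18a1 (median -0.18), were below 0. None of these passed. Of all 39 collagens 21 were above 0, with a median of 0.045.

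A member and a marker score were compared across the 19 libraries in 10 pairs. The interstitial collagens followed the meningeal fibroblast markers, a list that holds no member. For Col1a1, a chain of collagen I, Pearson's r was 0.83 (permutation p = 4e-05, adjusted over the 10 pairs 0.0002) and Spearman's rho 0.81 (permutation p = 4e-05). For Col1a2, the other chain of collagen I, r was 0.82 (permutation p = 2e-05, adjusted 0.0002) and rho 0.77 (permutation p = 0.00023). For Col3a1 r was 0.74 (permutation p = 0.0003, adjusted 0.00075) and rho 0.69 (permutation p = 0.0015). Within groups, after group means were taken off, r was 0.87, 0.87 and 0.80, and without the 2 libraries farthest from the median score, CnB1KO_SD6 libraries 17 and 18, it was 0.71, 0.70 and 0.57. These libraries share depth and dissection with the markers, and the fibroblast score varied within every group, from 2.39 to 3.74 in CnB1KO_SD6.

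**Figure D5:**
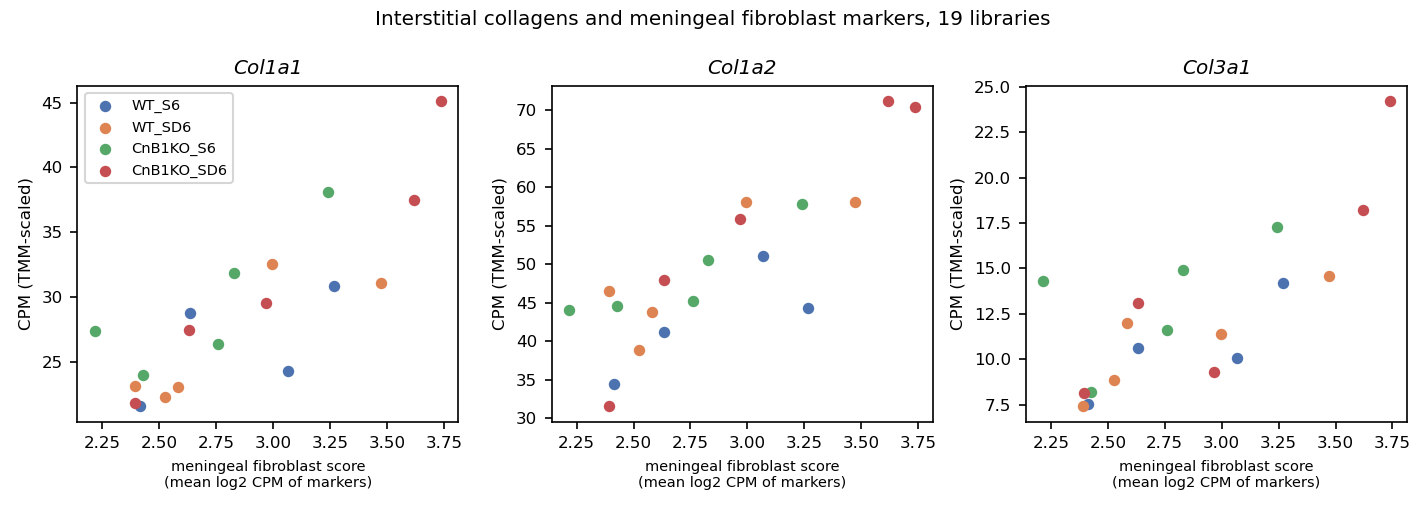
CPM of Col1a1, Col1a2 and Col3a1 (y axes, not from 0) against the meningeal fibroblast score (x axis) in 19 libraries coloured by group. Libraries with a high score have high collagen levels, with r of 0.83, 0.82 and 0.74.

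Basement membrane genes followed their marker scores less closely. Col4a1 had r = 0.59 with the endothelial score (permutation p = 0.009, adjusted 0.018; rho 0.46, permutation p = 0.049), 0.53 without CnB1KO_SD6 library 18 and CnB1KO_S6 library 12, and 0.15 within groups (permutation p = 0.55). Within groups the relation was thus not shown, and neither was its absence. Lama4, an endothelial laminin chain, had r = 0.52 (permutation p = 0.021, adjusted 0.035; rho 0.38, permutation p = 0.12), 0.57 without the same 2 libraries, and 0.58 within groups (permutation p = 0.0096). Col4a1 and the pericyte score gave r = 0.47 (permutation p = 0.041, adjusted 0.058; rho 0.28, permutation p = 0.25), 0.33 without CnB1KO_SD6 library 17 and WT_SD6 library 9, and 0.04 within groups.

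Itgb2 had r = 0.78 with the microglia score (permutation p = 0.00023, adjusted 0.00075; rho 0.59, permutation p = 0.0092) and 0.64 within groups (permutation p = 0.0035). Without WT_SD6 libraries 8 and 9 it fell to 0.42, so it rests partly on them. Itgb5 had r = -0.14 with the same score (permutation p = 0.56, adjusted 0.62; rho -0.01, permutation p = 0.97; 0.25 without the same 2). Col2a1 had r = 0.24 with the oligodendrocyte score (permutation p = 0.32, adjusted 0.41; rho 0.32, permutation p = 0.18; -0.43 within groups; 0.29 without WT_SD6 library 9 and CnB1KO_S6 library 13). With the choroid plexus and ependyma score it had r = -0.09 (permutation p = 0.72, adjusted 0.72; rho -0.01, permutation p = 0.96; 0.32 without WT_S6 library 3 and CnB1KO_SD6 library 18).

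Genes that make, modify or bind these proteins were read from 5 lists. Of 25 measured genes of collagen synthesis and crosslinking, 3 rose and 2 fell with deprivation averaged over genotypes. Over all genes 2.57% rose and 2.13% fell in this comparison, shares that stand beside the count of each list. The lists were not tested as sets. P4ha1, the catalytic subunit of the prolyl hydroxylase that stabilises the triple helix, stood at 51.1 to 60.5 CPM in WT_S6 and 68.9 to 77.3 in WT_SD6, and in CnB1KO at 60.9 to 67.9 CPM after sleep and 79.4 to 88 CPM after deprivation. The groups did not overlap in either genotype, and it rose in WT (log2 0.42, edgeR adjusted p = 0.000823), in CnB1KO (log2 0.39, edgeR adjusted p = 0.001) and on average (log2 0.41, SE 0.04, edgeR adjusted p = 4.7e-06). P4ha2, its paralogue, rose on average (log2 0.34, SE 0.09, edgeR adjusted p = 0.0323). Colgalt1, which adds galactose to collagen hydroxylysine, fell (log2 -0.42, SE 0.10, edgeR adjusted p = 0.0252), with 51.6 to 98.7 CPM in CnB1KO_SD6.

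Of 23 other matrix glycoproteins 2 rose and 0 fell in the same comparison. Tinagl1, a basement membrane protein that binds integrins, rose in WT (log2 0.64, edgeR adjusted p = 0.0104), in CnB1KO (log2 0.53, edgeR adjusted p = 0.0252) and on average (log2 0.59, SE 0.08, edgeR adjusted p = 0.000246). Fn1, fibronectin, stood at 91.4 ± 5.75 CPM in WT_S6 (SD, n = 4), 119 ± 11.3 in WT_SD6, 118 ± 22.7 in CnB1KO_S6 and 140 ± 20.4 in CnB1KO_SD6 (n = 5 each), and rose on average (log2 0.31, SE 0.08, edgeR adjusted p = 0.0334). Of 11 other matrix receptors, the syndecan Sdc4 rose (log2 0.31, SE 0.05, edgeR adjusted p = 0.000991) and the collagen receptor kinase Ddr1, which oligodendrocytes also express, fell (log2 -0.19, SE 0.03, edgeR adjusted p = 0.00313). Of 22 focal adhesion proteins, Tns3 (log2 0.29, SE 0.03, edgeR adjusted p = 3.9e-05) and Kank1 (log2 0.21, SE 0.05, edgeR adjusted p = 0.0342) rose and 0 fell. None of 12 metalloproteinases and inhibitors passed.

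P4ha1, Tinagl1, Sdc4 and Tns3 passed in both genotypes tested alone, which no member did. For the averaged genotype difference, P4ha1 (log2 0.22, edgeR adjusted p = 0.00815), Tinagl1 (log2 0.40, edgeR adjusted p = 0.0173) and Vtn, vitronectin (log2 0.19, edgeR adjusted p = 0.0498), were higher in CnB1KO. The lists' medians in the averaged deprivation comparison were 0.005 for synthesis, 0.0002 for glycoproteins, -0.10 for metalloproteinases, -0.04 for receptors and -0.03 for focal adhesion proteins, beside -0.003 for all genes.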

How the data were processed

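RNA from dissected locus coeruleus tissue was sequenced as unstranded poly(A) libraries, per the labels' protocols. Per the submitters' processing notes the tools included HTSeq 2.0.4 and StringTie 2.2.1, with Trim Galore 0.6.10, SAMtools 1.6, Picard 2.18.29 and FastQC 0.12.1, and the build was GRCm38, with no role or order given. The sources used here do not give the aligner or the annotation release. The authors deposited counts per gene symbol, whole and not normalized, for 19 libraries and 14443 genes, each with at least 381 counts in all. They also deposited FPKM per library in 4 tables, 1 per group, which were used for levels between genes and as an alternative, and 19 columns of TPM in those tables were not used. The columns name the group of a library, and their numbers are not the replicate numbers of the titles.

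Counts were scaled by TMM and fitted with edgeR 4.0.16 (R 4.3.3) in 1 model of the 4 groups, with 15 residual degrees of freedom and a common dispersion of 0.0121. The quasi-likelihood F test (2-sided) was adjusted by Benjamini-Hochberg over all 14443 genes, which filterByExpr all kept, with a threshold of 0.05. The 7 comparisons were deprivation in each genotype, genotype in each sleep state, the interaction and both averages. CPM are TMM-scaled with a prior count of 2 for log2 values, and FPKM were tested with limma 3.58.1 as log2(FPKM + 0.1) and log2(FPKM + 1), for genes with a mean of at least 0.1 FPKM. Alternatives also covered DESeq2 1.42.0 and its size factors, limma voom, a mean count of at least 50, no filter, the compared libraries alone, the library total or a marker score as a covariate, and leaving out libraries. Correlations used 100000 permutations (2-sided). Within groups, replicates differed by 1.38 to 19.1 times counting noise (chi-square per degree of freedom), so no library was counted as a copy. The labels give no batch.

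Positions came from GENCODE M21 on GRCm38, in which 97.6% of symbols matched 1 gene, and promoters from RefSeq. Named genes were Col2a1, Ppp3r1, every member past the threshold, the 2 most abundant members of each role, the 3 members with the smallest p per comparison and up to 3 passing genes of each pathway list. The members, lists and rules were chosen with earlier results of these data known. The level of 1 member is not reported here. The edgeR step was tested on simulated data.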

Additional observations from a re-analysis of the deposited data

Results flagged for a closer look

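In 11 of 132 groups of a gene, 1 library stood apart from the rest of its group by Dixon's test at the 95% level, which chance alone flags in about 1 of 20 groups. Values are CPM.

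Col12a1, a fibril-associated collagen, stood at 47.8 in WT_S6 library 4 against 29.3 to 31 in the other libraries of the group, and at 47.4 in CnB1KO_S6 library 12 against 29.8 to 34. WT_S6 library 4 was also high in Col6a1, at 28.1 against 17.6 to 17.7. CnB1KO_SD6 library 17 was high in Itga1, at 48.6 against 35.4 to 39.1, and in Lamc1, at 113 against 95.5 to 99.6. Lamb1, a beta chain of early and vascular laminins, was low in WT_S6 library 2, at 23.1 against 35.6 to 38.1, and in CnB1KO_S6 library 13, at 22.4 against 38.1 to 43.6. Itgb3bp was low in WT_S6 library 2 as well, at 9.41 against 10.8 to 11. Col25a1 was low in CnB1KO_S6 library 15, at 63.6 against 85.7 to 92.2. Col4a1 was high in WT_SD6 library 10, at 97.4 against 78.1 to 83.5, which is inside the range of the CnB1KO libraries. Ppp3r1, the targeted gene, was highest of its group in CnB1KO_S6 library 13, at 152 against 120 to 127, and that library had the lowest total count, 3887298.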

How the results depend on the processing

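No paired analysis was possible because the columns carry numbers that are not the replicate numbers of the titles. Over 46 results of a gene in a comparison, none changed sign under 14 alternatives or the 19 omissions of 1 library. The alternative without a filter repeats the main fit, since the filter kept all 14443 genes. For deprivation in WT the main count was 2 members. It was 0 with the compared libraries only and on both FPKM scales, 1 with the oligodendrocyte score as a covariate, 3 by DESeq2 and with the meningeal fibroblast score (with Col11a2), 5 with the endothelial score, 5 with the cerebellar granule score, 1 without CnB1KO_S6 library 13 and WT_SD6 library 8, and 0 to 3 without 1 library. All genes past the threshold fell from 165 to 35 with the compared libraries only, and to 47 and 51 on FPKM. For deprivation in CnB1KO the count was 1 with the endothelial score (Itga6) in place of 0. For genotype after deprivation it was 0 to 1 without 1 library. For deprivation averaged over genotypes it was 2 on log2(FPKM + 0.1), 3 on log2(FPKM + 1) and 2 with the oligodendrocyte score, in place of 6, and 4 to 6 without 1 library. For genotype averaged over sleep states it was 4 by DESeq2, 1 on both FPKM scales, 1 with the library total, 0 with the oligodendrocyte or endothelial score and 1 with the cerebellar score, in place of 2, and 0 to 7 without 1 library. The cause was not tested. The cerebellar score and the joint omission of 2 libraries were chosen after seeing the data. Low members limit precision, since Itga10, Col2a1 and Col6a3 rest on 30 to 105 reads per library.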

Other observations

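The FPKM tables list 11 further genes of these families that have no row of counts. The highest were the leukocyte integrin subunits Itgb7 (0.913 ± 0.314 FPKM, SD, n = 19) and Itgb2l (0.838 ± 0.52 FPKM), followed by Col17a1 (0.37 ± 0.164 FPKM), the transmembrane collagen of hemidesmosomes. These 3 were above 0 FPKM in every library. Itga11, Col6a4, Col28a1 and Itga2 had means of 0.313, 0.271, 0.263 and 0.254 FPKM and were each listed at 0 in 2 libraries. Col6a6 had a mean of 0.182 FPKM and was listed at 0 in 1 library. Itgb1bp2, Col10a1, the collagen of hypertrophic cartilage, and Itgb6, an epithelial subunit, were listed at 0 in 11, 10 and 14 of the 19 libraries. Col4a3 and Col22a1, the lowest members with counts, had means of 0.349 and 0.328 FPKM, so the count table leaves out some genes with higher FPKM than genes it holds.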
